A study of Mus musculus with 22 samples.

Results

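The livers of 11 germ-free and 11 conventional female mice were compared by RNA sequencing, with pregnancy taken out as a separate term of the model, so that each gene has 1 germ-free effect that is shared by pregnant and non-pregnant animals. The comparison takes all 22 libraries of the series and 15928 genes of the 53392 in the deposited table. Germ-free mice are raised without any microorganism, and conventional mice carry an ordinary gut microbiota. On each side 6 mice were not pregnant and 5 were pregnant, all of them labelled C57BL/6, with 1 liver library per mouse and no other allele or agent named. Pregnant mice were taken on gestation day 15, which was counted from a single night of mating in conventional mice and assumed after a longer mating in germ-free mice. Gestation was thus timed differently on each side, so its true stage and microbiota cannot be told apart wherever pregnant mice enter a comparison. Conventional mice had age labels of 70 to 77 and germ-free mice of 91 to 121, with no unit given. Age and microbiota therefore cannot be told apart in any result that follows. Both kinds of mice received the same autoclaved diet, water and bedding. The title of the series names the question as what the microbiota does to hepatic drug-processing genes in pregnancy.

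The liver sees the products of gut bacteria through the portal blood and through bile acids, which it makes from cholesterol, joins to taurine or glycine and sends to the gut, where bacteria split and modify them. Bile acids and bacterial metabolites act on nuclear receptors of the hepatocyte, among them Fxr, which restrains bile acid synthesis, and Pxr and Car, which drive cytochrome P450 enzymes, transferases and transporters that clear drugs. In mice, taurine is the main partner of bile acids, and hepatocytes make it from cysteine.

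Library totals ran from 18064491 to 30036912 estimated counts. Mitochondrially encoded genes took 5.9% to 23.59% of the counts in conventional libraries (median 12.58%) and 8.11% to 31.99% in germ-free libraries (median 17.66%). All 15 hepatocyte markers were detected, and their summed level was 74550 to 292400 CPM (the count scaled to a common library size) over the 22 libraries. Conventional pregnant replicate 2 stood apart from the other libraries in acute phase and immune genes, with the acute phase gene Saa1 at 2050 CPM and at most 62.2 CPM elsewhere. Gene lists whose median turned or whose calls changed without it are given with and without it.

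Germ-free livers differed from conventional livers in few genes. Among those called were several major urinary protein genes, the taurine synthesis gene Csad, the metallothioneins Mt1 and Mt2 and single drug-metabolising enzymes. At an adjusted p under 0.05 (edgeR quasi-likelihood test, Benjamini-Hochberg over all genes tested), which is what called means below, 54 genes were higher in germ-free mice (0.339% of the genes tested) and 55 were lower (0.345%), or 109 in all (0.684%). An unadjusted p under 0.05 was seen for 1557 genes (9.78%). Of the called genes, 21 of those higher and 26 of those lower changed at least 2-fold. The median log2 change of the called genes was 0.89 for those higher and -0.96 for those lower, beside -0.02 over all genes tested. The smallest called changes were 0.39 and 0.34 in log2 size, on the higher and the lower side. A total of 50 of the genes higher and 48 of those lower were protein coding.

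**Figure D1:**
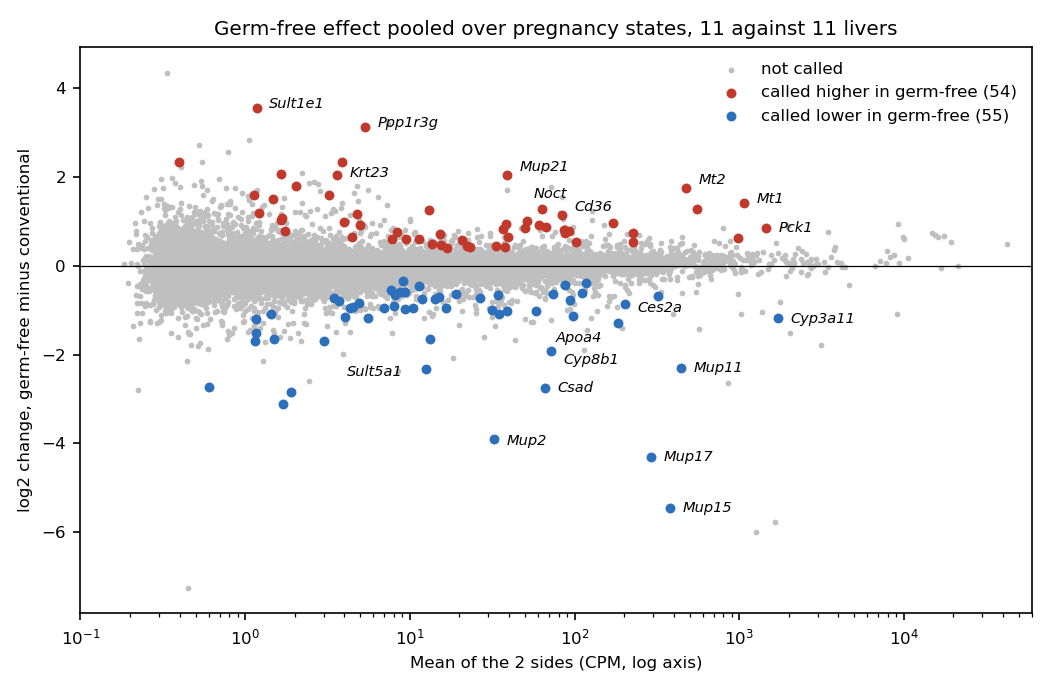
Each point is 1 of the 15928 genes tested, with the mean level of both sides on a log axis (CPM) against the pooled log2 change, germ-free minus conventional. The 54 called genes that were higher are red and the 55 that were lower are blue, and the lowest called points are the major urinary protein genes Mup15, Mup17 and Mup2.

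Only 3 genes (0.0188% of the genes tested) separated all 11 germ-free from all 11 conventional libraries, and all 3 were called. Csad encodes cysteine sulfinic acid decarboxylase, which makes hypotaurine, the precursor of taurine, and lies on chromosome 15 at 102176999 to 102204724 (GRCm38). Its level was 65.7, 99.4 and 303 CPM (lowest, median and highest) in conventional and 8.38, 15.1 and 40.0 CPM in germ-free mice. The lowest conventional library was thus above the highest germ-free one, which was germ-free pregnant replicate 2. Csad fell by 2.76 ± 0.26 (log2, standard error) in germ-free mice (adjusted p = 2.8e-06), with log2 differences of -2.66 ± 0.36 in non-pregnant and -2.87 ± 0.40 in pregnant mice. Serinc2, a member of the serine incorporator family, was at 6.71, 6.97 and 10.0 CPM in conventional and at 1.12, 3.73 and 6.1 CPM in germ-free mice and fell by 1.17 ± 0.19 (adjusted p = 0.00246). The noncoding transcript 1810053B23Rik was named after its values were seen. It stood at 0.580, 1.06 and 2.48 CPM in conventional and at 4.97, 6.05 and 9.16 CPM in germ-free mice and rose by 2.33 ± 0.23 (adjusted p = 3.58e-06).

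A further set of genes separated the sides within each pregnancy state. Including the 3 above, 12 genes (0.0753%) did so in the same direction in both states, 7 of them higher (0.0439%) and 5 lower (0.0314%). Among them were Sult5a1, a sulfotransferase, which fell by 2.33 ± 0.29 (adjusted p = 8.57e-05), and Apoa4, an apolipoprotein of triglyceride-rich particles, which fell by 1.29 ± 0.15 (adjusted p = 4.26e-05). Sult5a1 was at 6.83, 21.4 and 31.5 CPM in conventional and at 1.53, 3.4 and 13.6 CPM in germ-free mice. Germ-free non-pregnant replicate 1 held the highest germ-free level and conventional pregnant replicate 2 the lowest conventional one. Apoa4 was at 118, 221 and 562 CPM in conventional and at 49.1, 86.4 and 228 CPM in germ-free mice, with pregnant animals above non-pregnant ones on both sides. The fatty acid transporter Cd36 rose by 1.14 ± 0.15 (adjusted p = 0.000245), from 26.7, 38.2 and 110 CPM to 51.9, 117 and 182 CPM. Proser2 rose by 0.72 ± 0.10 (adjusted p = 0.000485), from 8.12, 11.5 and 14.2 CPM to 13.9, 19.4 and 23.4 CPM.

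**Figure D2:**
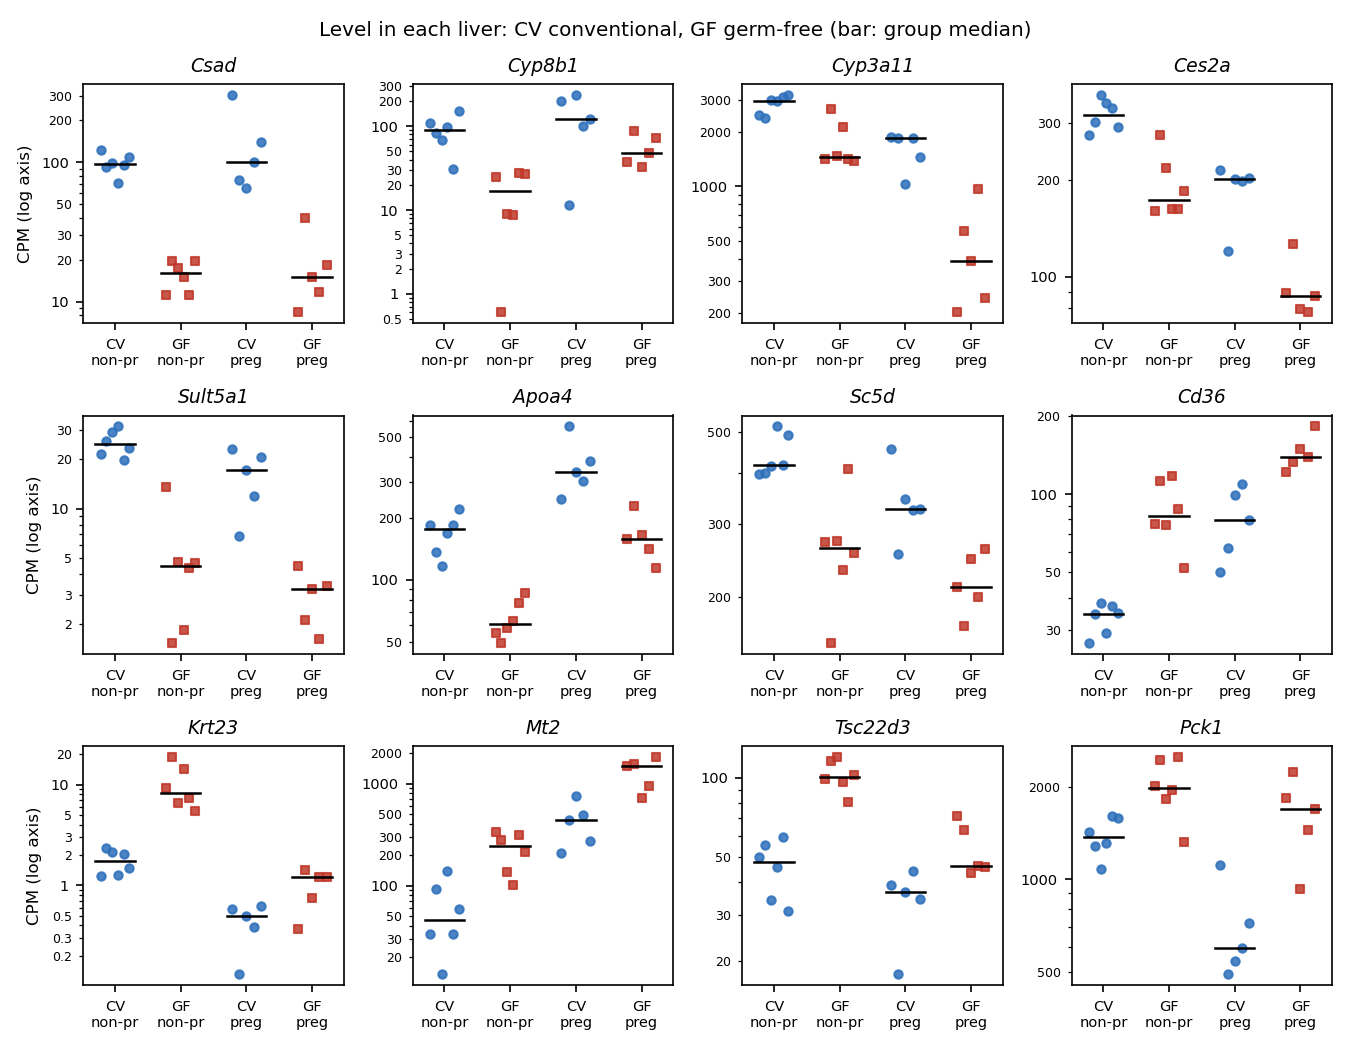
Level of 12 called genes in each liver (CPM, log axis) by group, with circles for conventional (CV) and squares for germ-free (GF) mice and a bar at the group median. For Csad every germ-free point lies under every conventional point, whereas for Cyp8b1, Mt2 and Pck1 the sides overlap.

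In bile acid synthesis, the 12-alpha-hydroxylase Cyp8b1, which sets the share of cholic acid, was the 1 called gene of 18 tested, and it was lower. Its level was 11.4, 100 and 234 CPM in conventional and 0.604, 27.7 and 87.5 CPM in germ-free mice, and the lowest library of each side was replicate 2 of the conventional pregnant and of the germ-free non-pregnant group. Cyp8b1 fell by 1.92 ± 0.46 with an adjusted p of 0.0498, just under the threshold. When single libraries were omitted, the call ended in 17 of 22 fits, and the highest adjusted p was 0.104. It held without conventional non-pregnant replicate 5, conventional pregnant replicate 2 or 4, germ-free non-pregnant replicate 2 or germ-free pregnant replicate 2. It also ended with other size factors, with limma-voom, with a replicate block, and with mitochondrial genes removed or their share as a term. Cyp7a1, the rate-limiting enzyme of the pathway, was at 17.8, 149 and 200 CPM in conventional and 29.1, 136 and 248 CPM in germ-free mice, with a log2 difference of 0.00 ± 0.31 (adjusted p = 0.999). The median over the 18 genes was -0.07, and none of 19 bile acid and organic anion transporters was called (median -0.12, 0 higher and 2 lower at an unadjusted p under 0.05).

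Of 21 genes of taurine and cysteine metabolism, Csad was the 1 called lower. Got1, the cytosolic aspartate aminotransferase, was the 1 called higher, by 0.95 ± 0.22 (adjusted p = 0.0403). Cdo1, which supplies the substrate of Csad, had a log2 difference of 0.05, and Slc6a6, the taurine carrier, one of -0.35, neither of them called. The median of the list was -0.02, and -0.04 without conventional pregnant replicate 2, where Csad alone was called. The call of Got1 ended in 18 of the 22 fits without 1 library (highest adjusted p = 0.0826). It held only without conventional non-pregnant replicate 6, conventional pregnant replicate 1, germ-free non-pregnant replicate 3 or germ-free pregnant replicate 3.

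Among drug-processing genes, the called changes went in both directions, also within the cytochrome P450 and sulfotransferase lists. Cyp3a11, a Cyp3a enzyme that oxidises many drugs in mouse liver, and the carboxylesterase Ces2a were lower in germ-free mice, and both are known targets of Pxr. Cyp3a11 (chromosome 5 at 145854426 to 145879964) was at 1030, 2400 and 3180 CPM in conventional and at 202, 1380 and 2680 CPM in germ-free mice. The 5 germ-free pregnant livers held the 5 lowest levels, 202 to 972 CPM, and the sides overlapped among non-pregnant mice. Cyp3a11 fell by 1.19 ± 0.24 (adjusted p = 0.0144), with log2 differences of -1.76 ± 0.32 in pregnant (adjusted p = 0.0222) and -0.71 ± 0.29 in non-pregnant mice (adjusted p = 0.637). With the mitochondrial share as a term, its adjusted p was 0.0508. Ces2a fell by 0.86 ± 0.12 (adjusted p = 0.000717), from 120, 275 and 364 CPM to 77.8, 160 and 274 CPM. Of 32 genes of Pxr, Car and their targets, these 2 were the called ones, and 21 of the 32 had a log2 difference above 0 (median 0.21). Without conventional pregnant replicate 2, Papss2, which makes the sulfate donor, was called lower as well.

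Of 58 cytochrome P450 genes of families 1 to 4, 2 were called higher and 2 lower, with a median of 0.10. At an unadjusted p under 0.05, 12 of the 58 were higher and 6 lower. Over all genes tested, 0.684% were called and 9.78% had an unadjusted p under 0.05. Cyp2c67 rose by 0.80 ± 0.16 (adjusted p = 0.0136), from 26.8, 72.1 and 105 CPM to 51.3, 97.0 and 168 CPM. Its log2 differences were 1.15 ± 0.22 in pregnant (adjusted p = 0.0264) and 0.51 ± 0.20 in non-pregnant mice (adjusted p = 0.576). Cyp2c38 rose by 0.87 ± 0.20 (adjusted p = 0.0443) and Cyp3a59 fell by 0.66 ± 0.15 (adjusted p = 0.0397). Both were named after their values were seen, and their calls ended in 16 and 17 of the 22 fits without 1 library (highest adjusted p of 0.0917 and 0.0866). Genes of the Cyp2c and Cyp3a families have near copies among which reads may be divided, so each is uncertain on its own. Cyp1a2, Cyp2a5, Cyp2b10 and Cyp4a14, common reporters of Ahr, Car and Ppar-alpha activity, had log2 differences of 0.16 ± 0.16, 0.15 ± 0.20, -0.27 ± 0.35 and 0.02 ± 0.21, and none was called. None of 10 genes of the Ahr pathway was called (1 higher and 0 lower at an unadjusted p under 0.05).

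Conjugating enzymes showed the same mixture. Of 16 sulfotransferase genes, Sult1e1, the estrogen sulfotransferase, was higher and Sult5a1 lower (median -0.11). Without conventional pregnant replicate 2, Papss2 of this list was called lower too (median -0.15). Sult1e1 was near the limit of detection in conventional mice, at 0.0, 0.0438 and 1.11 CPM, and at 0.0934, 0.809 and 13.2 CPM in germ-free mice. The 13.2 CPM came from germ-free non-pregnant replicate 2, and the next highest germ-free library held 2.29 CPM. Sult1e1 rose by 3.55 ± 0.71 (adjusted p = 0.0143), a value that rests on few counts, and the call ended with limma-voom and with the mitochondrial share as a term. Of 20 genes for glucuronidation only Ugp2, which makes the UDP-glucose used for glycogen and glucuronides and is not itself a transferase, was called, higher by 0.54 ± 0.10 (adjusted p = 0.00768). None of 22 glutathione S-transferases was called (median 0.06), nor any of 18 methyl-, acetyl- and glycine transferases (median 0.07), among which Nnmt, nicotinamide N-methyltransferase, stood at 1.04 ± 0.26 (adjusted p = 0.0661). Fmo4, a flavin monooxygenase, fell by 0.58 ± 0.12 (adjusted p = 0.0188), a call that ended with the mitochondrial share as a term, and with Ces2a it made 2 lower of 45 esterase, monooxygenase and aldehyde enzyme genes (median -0.01). Of 20 Nrf2 target genes, Osgin1, an oxidative stress gene, was the 1 called, and it fell by 1.13 ± 0.19 (adjusted p = 0.00309; list median -0.19). Of 22 retinoid genes, the retinol dehydrogenase Rdh5 rose by 0.45 ± 0.11 (adjusted p = 0.0397). That call ended in 16 of the 22 fits without 1 library (highest adjusted p = 0.0784). The fits that kept it left out conventional non-pregnant replicate 2 or 4, conventional pregnant replicate 3 or germ-free non-pregnant replicate 3, 4 or 5. Without conventional pregnant replicate 2 no retinoid gene was called (median 0.02).

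A few genes that answer to glucocorticoids and metals were higher in germ-free livers. Of 26 heat shock, glucocorticoid and metallothionein genes, 4 were called higher and none lower (9 and 1 at an unadjusted p under 0.05), with a median of 0.23. The 4 were the metallothioneins Mt1 and Mt2, small metal-binding proteins, Tsc22d3, a glucocorticoid-induced leucine zipper protein, and Tat, tyrosine aminotransferase. Without conventional pregnant replicate 2, Mt2, Tsc22d3 and Tat were the 3 called (median 0.26). The heat shock genes of the list were not called, with log2 differences of 1.01 for Hspa1b and 1.56 for Hspa1a. Mt1 and Mt2 are neighbours on chromosome 8, and both moved in the same direction. Their promoters are therefore shown, from RefSeq on GRCm38.p6, reading 5′ to 3′ on the plus strand from 250 bases before to 50 bases after the annotated start, with matches to the core of the metal response element in capitals. Mt1 is taken from chr8:94178839-94179138 and Mt2 from chr8:94172368-94172667.
Mt1: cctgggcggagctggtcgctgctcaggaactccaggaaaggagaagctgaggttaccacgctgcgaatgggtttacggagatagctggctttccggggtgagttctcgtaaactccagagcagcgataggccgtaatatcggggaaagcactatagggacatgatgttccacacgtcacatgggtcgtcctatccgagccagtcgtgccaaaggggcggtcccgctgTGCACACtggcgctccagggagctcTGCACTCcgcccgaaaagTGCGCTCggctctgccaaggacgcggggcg
Mt2: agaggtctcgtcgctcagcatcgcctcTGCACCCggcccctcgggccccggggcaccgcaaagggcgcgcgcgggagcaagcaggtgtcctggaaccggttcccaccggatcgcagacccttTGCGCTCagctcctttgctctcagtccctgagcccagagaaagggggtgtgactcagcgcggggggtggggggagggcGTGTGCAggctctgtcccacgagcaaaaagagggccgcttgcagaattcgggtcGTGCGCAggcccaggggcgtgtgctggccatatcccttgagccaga
The searched cores were TGCACNC and TGCGCNC on both strands, and Mt1 held 3 matches and Mt2 held 4. At least 1 match stood in 25.7% of all 32851 windows of this length. For genes, the window with the most matches was taken, so their shares are not shares of windows. At least 1 match stood in 38.5% of 11329 genes tested that had a window. It stood in 15 of 41 genes called higher (36.6%) and in 18 of 46 called lower (39.1%). At least 3 matches were found in 1.97% of all windows and in 3.6% of genes tested. They were found in 4 genes called higher (9.76%), among them Mt1 and Mt2, and in none called lower. The motif was searched because of Mt1 and Mt2, so their part in this share follows from that choice. A difference between these shares was not tested. A match describes the letters only.

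Mt2 was at 13.5, 138 and 763 CPM in conventional and at 101, 335 and 1810 CPM in germ-free mice. Within each pregnancy state the germ-free livers were mostly above the conventional ones, and pregnant animals were above non-pregnant ones on both sides, so the sides overlap widely. Mt2 rose by 1.75 ± 0.32 (adjusted p = 0.00768), and its call held in all 22 fits without 1 library. Mt1 was at 73.2, 278 and 1770 CPM in conventional and at 337, 970 and 4330 CPM in germ-free mice and rose by 1.42 ± 0.34 (adjusted p = 0.0489). The call of Mt1 ended in 18 of those fits (highest adjusted p = 0.0891) and held without conventional non-pregnant replicate 4, conventional pregnant replicate 3 or germ-free non-pregnant replicate 3 or 4. Tsc22d3 rose by 0.92 ± 0.15 (adjusted p = 0.00264), from 17.9, 39.2 and 59.6 CPM to 43.5, 80.5 and 119 CPM. All 6 germ-free non-pregnant livers, at 80.5 CPM or more, were above every conventional liver.

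In glucose metabolism, 2 of 23 genes were called, both higher, and 17 of the 23 had a log2 difference above 0 (median 0.26). Pck1, which encodes phosphoenolpyruvate carboxykinase of gluconeogenesis, was at 491, 1110 and 1610 CPM in conventional and at 929, 1840 and 2490 CPM in germ-free mice. Pck1 rose by 0.85 ± 0.17 (adjusted p = 0.015), and with the mitochondrial share as a term its adjusted p was 0.0547. Its log2 differences were 1.23 ± 0.24 in pregnant (adjusted p = 0.0315) and 0.54 ± 0.22 in non-pregnant mice (adjusted p = 0.621). Tat was at 400, 707 and 1210 CPM in conventional and at 793, 1150 and 1720 CPM in germ-free mice and rose by 0.61 ± 0.15 (adjusted p = 0.0453). Tat kept its call in 5 of the 22 fits without 1 library, those without conventional non-pregnant replicate 4 or 6, conventional pregnant replicate 2 or 3 or germ-free pregnant replicate 3 (highest adjusted p over all 22, 0.086). G6pc, the glucose-6-phosphatase subunit, and Igfbp1, an insulin-repressed binding protein, were at 1.18 ± 0.35 (adjusted p = 0.157) and 1.76 ± 0.48 (adjusted p = 0.0989), and Igfbp1 was called without conventional pregnant replicate 2. Ppp1r3g, a glycogen-targeting subunit of protein phosphatase 1 that was chosen after its values were seen, rose by 3.13 ± 0.47 (adjusted p = 0.00139), from 0.0875, 1.00 and 2.58 CPM to 0.883, 7.65 and 45.2 CPM. The 45.2 CPM came from germ-free non-pregnant replicate 3. Noct, nocturnin, also chosen in this way, rose by 1.28 ± 0.22 (adjusted p = 0.00432), while none of 22 clock genes was called (median 0.01, and -0.01 without conventional pregnant replicate 2).

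Cholesterol synthesis genes lay lower in germ-free livers as a group, although few passed the test singly. Of 28 genes, 26 had a log2 difference under 0 and 18 had an unadjusted p under 0.05 on the lower side, against 2 on the higher side. Over all genes tested, 920 were lower and 637 higher at that level. The 2 called were Pmvk, phosphomevalonate kinase, which fell by 1.00 ± 0.18 (adjusted p = 0.0069), and Sc5d, a sterol desaturase, which fell by 0.69 ± 0.13 (adjusted p = 0.00949). The median of the list was -0.61, and -0.67 without conventional pregnant replicate 2, where Acat2 was called too. The summed level of the list was 3302, 4152 and 5948 CPM in conventional and 1554, 2934 and 4675 CPM in germ-free mice. Pmvk was at 26.4, 40.2 and 71.0 CPM in conventional and at 10.4, 18.0 and 35.9 CPM in germ-free mice. Hmgcs1, the synthase ahead of the rate-limiting step, was at -1.08 ± 0.30 (adjusted p = 0.107). The 2 members on the higher side were the sterol exporters Abcg5 and Abcg8, at 0.48 and 0.36 and not called.

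In the other lipid lists the called genes were single ones. Cd36 was the 1 called of 29 genes that build or store fatty acids and triglycerides (median -0.20), and Acsl3 was called lower too without conventional pregnant replicate 2. Of 37 Ppar-alpha target genes, Cd36 was higher and Ucp2, a mitochondrial carrier, lower by 0.64 ± 0.14 (adjusted p = 0.0273; median -0.04). The call of Ucp2 ended without conventional non-pregnant replicate 2, conventional pregnant replicate 3, germ-free non-pregnant replicate 4 or 6 or germ-free pregnant replicate 2 or 4 (highest adjusted p = 0.0638). Pltp, the phospholipid transfer protein, fell by 0.72 ± 0.13 (adjusted p = 0.00768), and Plin4, a lipid droplet protein, rose by 1.60 ± 0.35 (adjusted p = 0.0269), both named after their values were seen. The call of Plin4 ended without conventional non-pregnant replicate 1, germ-free non-pregnant replicate 4 or germ-free pregnant replicate 1 (highest adjusted p = 0.0581). Krt23, a keratin, rose by 2.04 ± 0.30 (adjusted p = 0.000852), from 0.131, 1.25 and 2.35 CPM to 0.367, 5.43 and 18.7 CPM, with log2 differences of 2.54 ± 0.34 in non-pregnant and 1.16 ± 0.42 in pregnant mice. The 6 germ-free non-pregnant livers, at 5.43 CPM or more, were above every other library.

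**Figure D3:**
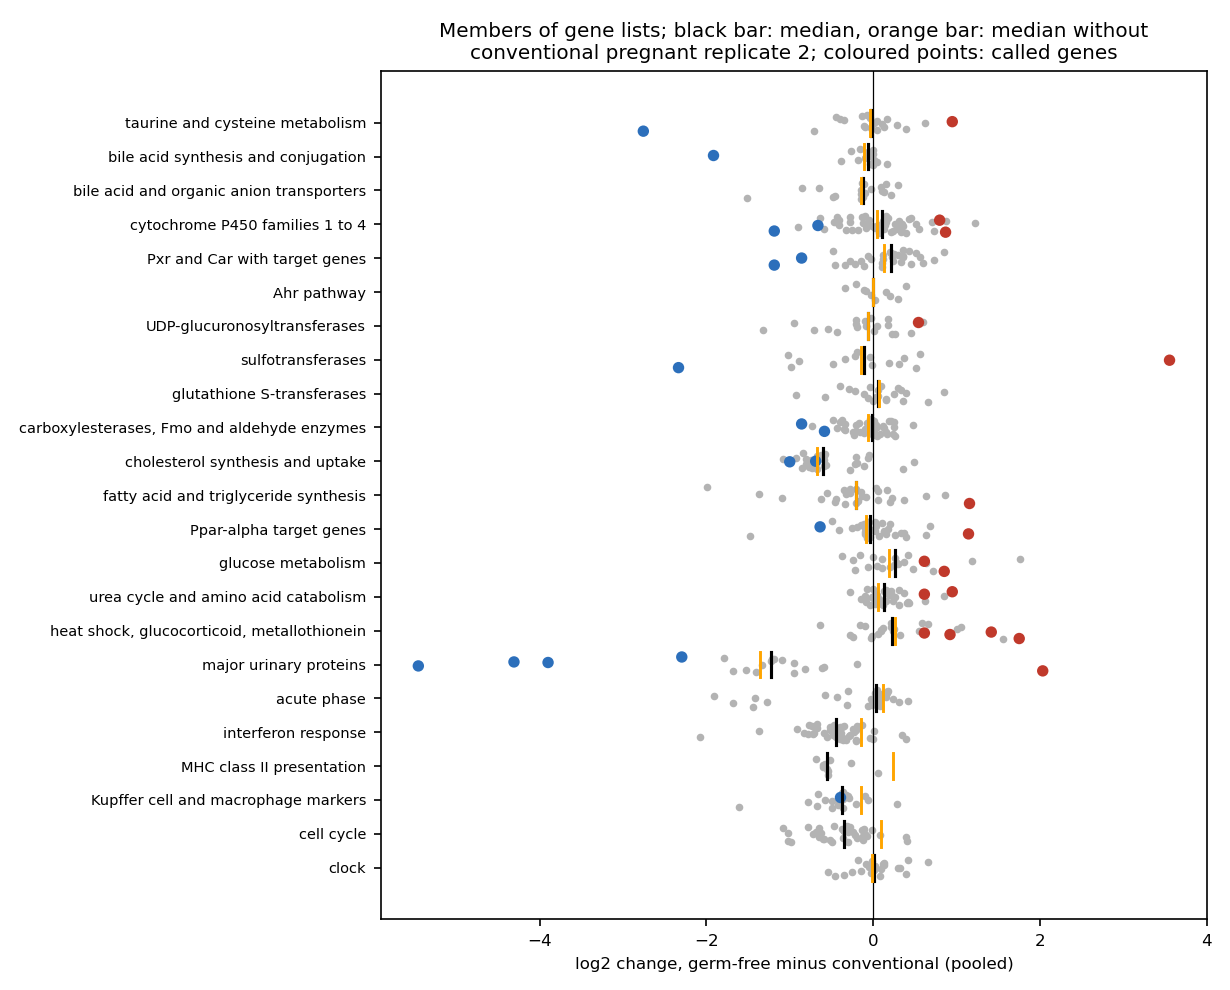
Each point is a tested member of a gene list, at its pooled log2 change, with called genes in red (higher) and blue (lower). The black bar is the list's median and the orange bar the median without conventional pregnant replicate 2, and these bars lie far apart for MHC class II presentation, at -0.55 and 0.24.

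Major urinary proteins, lipocalins made by the liver and excreted to carry pheromones, held the 3 largest log2 changes of the called genes. Of 20 genes, 4 were called lower, 14 had an unadjusted p under 0.05 on the lower side, and 1, Mup21, was called higher, with a median of -1.22. Mup15 was at 5.12, 662 and 2240 CPM in conventional and at 0.0, 7.72 and 40.7 CPM in germ-free mice and fell by 5.45 ± 0.86 (adjusted p = 0.00189). Its levels in non-pregnant mice were 662 CPM or more in conventional and 24.8 CPM or less in germ-free livers, and the lowest conventional liver was pregnant replicate 2. Mup17, Mup2 and Mup11, named after their values were seen, fell by 4.31 ± 0.80, 3.90 ± 0.72 and 2.29 ± 0.51 (adjusted p of 0.00849, 0.00768 and 0.0271). Mup11 lost its call without conventional pregnant replicate 3 or germ-free non-pregnant replicate 1, 3, 4 or 5 (highest adjusted p = 0.061). Mup21 (chromosome 4 at 62147932 to 62150863) rose by 2.03 ± 0.31 (adjusted p = 0.00179), from 2.85, 5.18 and 54.1 CPM to 6.34, 35.1 and 171 CPM, with no overlap within either pregnancy state. The summed level of the family was 670.8, 24660 and 57750 CPM in conventional and 1212, 7812 and 23290 CPM in germ-free mice. In non-pregnant mice the sums were 24660 to 57750 CPM in conventional and 1212 to 23290 CPM in germ-free livers, with no overlap. In pregnant mice they overlapped, at 670.8 to 18570 CPM and 3535 to 14290 CPM. Mup15 was at -6.94 ± 1.04 in non-pregnant and -3.61 ± 0.98 in pregnant mice, and Mup17 at -5.96 ± 0.88 and -2.23 ± 0.81. Neither was called in the interaction. Only conventional pregnant replicate 2, at 670.8 CPM, lay under 10320 CPM among conventional livers. Without that library 5 genes were called lower and the median was -1.36. Copies of these genes are nearly identical, so the counts of single members are uncertain and the family is better read as a whole.

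**Figure D4:**
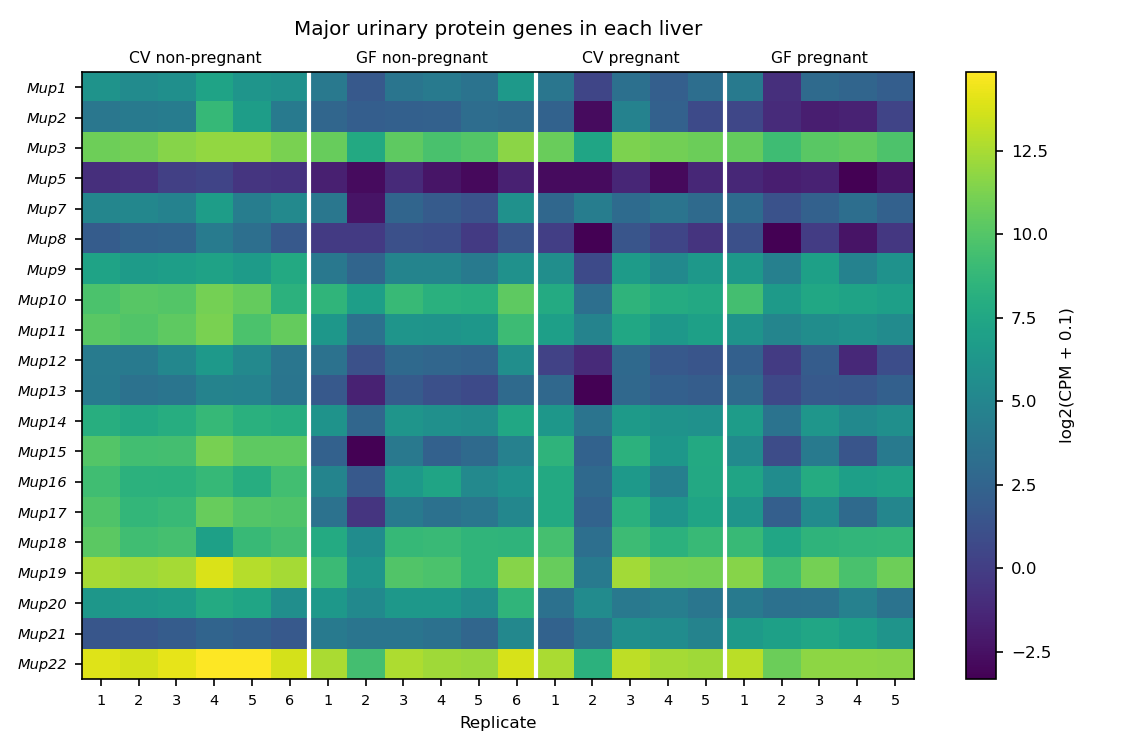
Level of 20 major urinary protein genes in each liver, as log2(CPM + 0.1) by colour, with livers in columns by group (CV conventional, GF germ-free). Most genes are brightest in the conventional non-pregnant columns and Mup21 in the germ-free pregnant columns, and replicate 2 is the darkest of the conventional pregnant and of the germ-free non-pregnant group for most genes.

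Chromosomes 4 and 8 are named because they held the largest shares of called genes. Whether the spread over chromosomes was uneven was not tested. Chromosome 4 held 17 of the 109 called genes, 1.79% of its 949 genes tested, and 7 of the 17 were Mup genes or Mup pseudogenes. Chromosome 8 held 12, or 1.37% of 877, among them Mt1, Mt2, Tat, Ces2a, Sult5a1 and Osgin1. These shares stand beside 0.684% over all genes. In a list of 21 male-biased liver genes, which shares members with the Mup family, the median was -0.61. Mup21 was called higher, and Nudt7, a peroxisomal coenzyme A hydrolase, fell by 0.61 ± 0.14 (adjusted p = 0.0437). Nudt7 lost its call in 14 of the 22 fits without 1 library (highest adjusted p = 0.0915). It held without conventional non-pregnant replicate 2, conventional pregnant replicate 2 or 4, germ-free non-pregnant replicate 2, 3 or 6 or germ-free pregnant replicate 1 or 3. Of 27 female-biased genes, Sult1e1 was the 1 called (median -0.12).

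The interferon, MHC class II and acute phase lists held no called gene, and their medians moved when conventional pregnant replicate 2 was left out. None of 47 interferon response genes was called (1 higher and 15 lower at an unadjusted p under 0.05, median -0.45), and without conventional pregnant replicate 2 these were 2, 6 and -0.15. None of 10 MHC class II genes was called, and their median of -0.55 became 0.24 without that library. None of 31 acute phase genes was called, and Saa1, Saa2 and the iron-binding protein gene Lcn2 had log2 differences of -1.44 ± 0.88, -1.91 ± 1.06 and -1.27 ± 0.74. Without that library the same genes stood at 0.53, 0.27 and 0.72, and Orm2 of the acute phase list was called higher. Saa2 reached 2160 CPM and Lcn2 884 CPM in that library, against at most 43.5 and 59.5 CPM in the others. Igha, the heavy chain of immunoglobulin A, an antibody of mucosal plasma cells, was at 0.209, 0.522 and 2.23 CPM in conventional and at 0.0, 0.0847 and 2.05 CPM in germ-free mice (-1.74 ± 0.75, adjusted p = 0.419). All germ-free livers but non-pregnant replicate 1 were under every conventional liver for Igha, and over the fits without 1 library its lowest adjusted p was 0.00334. Hamp, which encodes the iron hormone hepcidin, and Fgf21, a fasting hormone, were at -1.42 ± 0.53 (adjusted p = 0.312) and -1.47 (adjusted p = 0.636), and Fgf21 was at 0.08 without conventional pregnant replicate 2.

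Markers of other cell types gave 1 call. Slc40a1, the iron exporter ferroportin, stands in the list of 21 Kupffer cell and macrophage markers and fell by 0.40 ± 0.09 (adjusted p = 0.0221), from 97.5, 136 and 177 CPM to 78.4, 87.7 and 147 CPM. In whole liver, fewer cells of a type and less RNA per cell cannot be told apart. The summed level of the 21 markers was 461.5, 694.7 and 1965 CPM in conventional and 354.2, 519 and 793.7 CPM in germ-free mice, with 20 of 21 members under 0, 3 lower at an unadjusted p under 0.05 and a median of -0.38. Without conventional pregnant replicate 2 these were 17, 1 and -0.15, and Slc40a1 was still called. Its part in the change of Slc40a1 was not tested, and the call ended with the mitochondrial share as a term and with no filter on low counts. No marker of B and plasma cells (17 tested), T and NK cells (16), neutrophils (5), endothelium (16), stellate cells and fibroblasts (16), bile ducts (8), red cells (12) or adipose tissue, muscle and pancreas (5) was called. The T and NK cell markers had a median of -0.36 (0.04 without that library) and the neutrophil markers one of -1.27 (-0.14 without it). The red cell markers summed to 394, 619.6 and 2301 CPM in conventional and 259, 1782 and 3613 CPM in germ-free mice, with a median of 0.59. None of 6 genes known to differ between the C57BL/6J and C57BL/6N substrains was called, with 0 higher and 1 lower at an unadjusted p under 0.05. Nnt, which is deleted in part in C57BL/6J, was at 0.16 (adjusted p = 0.888). None of 36 cell cycle genes was called (median -0.35, and 0.09 without conventional pregnant replicate 2). Of 15 mitochondrially encoded genes, all had a log2 difference above 0, 10 were higher at an unadjusted p under 0.05 and none was called (median 0.69). The part of this shift in the other results was not tested, and the fit with the mitochondrial share as a term gave 23 genes higher and 28 lower, 45 of which were among the 109. Csad, Cd36, Mt2, Tsc22d3, Apoa4, Sult5a1, Ces2a and Mup15 were called in that fit, and Ucp2, Got1, Tat, Nudt7, Rdh5, Mt1 and Plin4 were not.

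The effect was then set out by pregnancy state. In non-pregnant mice alone 25 genes were called (0.157%), 14 higher (0.0879%) and 11 lower (0.0691%), and in pregnant mice alone 21 (0.132%), 13 higher (0.0816%) and 8 lower (0.0502%). At an unadjusted p under 0.05 there were 957 (6.01%) and 1672 (10.5%). These contrasts share no library, but they share 1 estimate of the spread. All 109 genes of the pooled comparison, which draws on both states, had the same sign in each, and 81 of them were called in neither state alone. Over all genes tested, 8679 of 15928 had the same sign in both states. Of the 25 genes called in non-pregnant mice, 23 had the same sign in pregnant mice and 17 (68.0%) did so with an unadjusted p under 0.05, beside 6.8% over all genes. The 2 of opposite sign were the heat shock gene Hspa1b and 2010003K11Rik. Of the 21 called in pregnant mice, 20 had the same sign in non-pregnant mice and 11 (52.4%) did so with an unadjusted p under 0.05, beside 4.5% over all genes. The exception was Sult4a1, a sulfotransferase at 0.976 CPM or less in germ-free mice. In 5 genes the call stood in both states, namely Csad, Apoa4, Sult5a1, Proser2 and 1810053B23Rik.

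**Figure D5:**
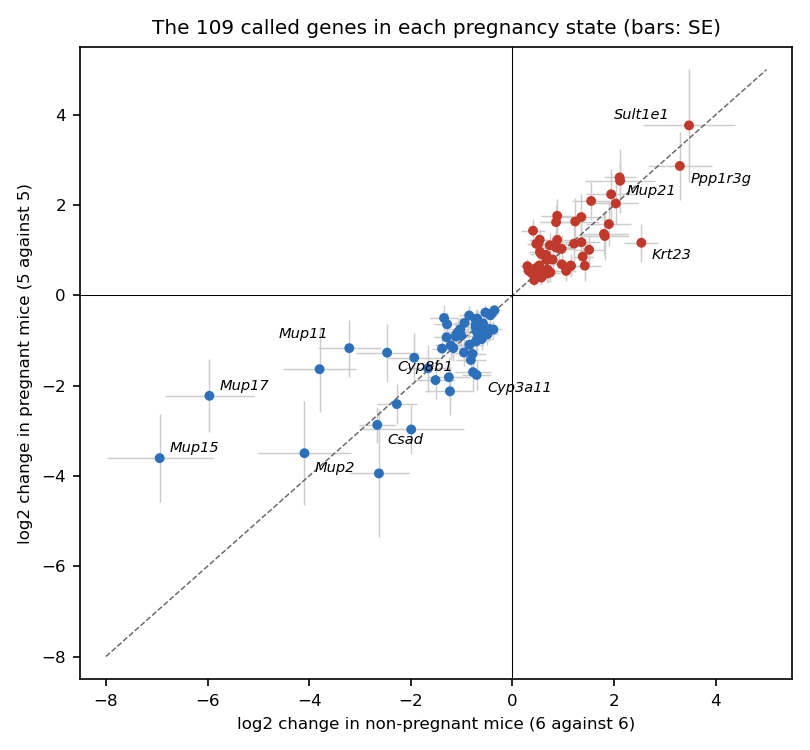
Log2 change (germ-free minus conventional) of the 109 called genes in non-pregnant mice, on the x axis, and in pregnant mice, on the y axis, with standard errors as grey bars and equal change as the dashed line. Each gene lies on the same side of 0 in both states, and Mup15 and Mup17 lie farthest from the line.

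The difference between the states was itself tested as an interaction. No gene was called (0.0%), with 904 genes (5.68%) at an unadjusted p under 0.05, 7 calls by DESeq2 and 2 by limma-voom. Among the 109 pooled calls, 10 (9.2%) had an unadjusted interaction p under 0.05. The smallest adjusted p, 0.0717, was shared by Cyp2b13, a female-biased P450, and Scd1, a fatty acid desaturase, and neither was called in the pooled comparison. Scd1 was at 436 to 844 CPM in conventional and at 73.0 to 171 CPM in germ-free pregnant mice, a fall of 2.23 ± 0.28 (adjusted p = 0.000324), while its log2 difference in non-pregnant mice was -0.17 ± 0.24 (adjusted p = 0.999). Cyp2b13 rose by 2.43 ± 0.28 in pregnant mice (adjusted p = 0.000188), from 5.91 to 20.4 CPM up to 73.8 to 80.2 CPM, and had a log2 difference of 0.26 ± 0.24 in non-pregnant mice. Both genes passed in the interaction with no filter on low counts, with a stricter filter, with DESeq2 and with limma-voom.

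Age could be examined only within a side. Within the 11 germ-free mice, whose age labels ran from 91 to 121, no gene was called for age with pregnancy in the model (770 of 14545 at an unadjusted p under 0.05, 5.29%). Of the called genes of the pooled comparison, 106 were tested there, 12 had an unadjusted p under 0.05 for age, and 3 of the 12 moved with age in the direction of the germ-free effect. Within the 11 conventional mice, between labels of 70 and 77, 1 gene was called, 26 of 107 had an unadjusted p under 0.05, and 19 of these had the direction of the germ-free effect, beside 14.14% of all genes at that level. The gap in age between the sides lies outside both ranges. With the age label as a term in the pooled model no gene was called, the variance of the germ-free term being inflated 7.33 times, and 576 genes had an unadjusted p under 0.05.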

How the data were processed

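RNA from snap-frozen livers of 22 female mice was sequenced, 1 library per mouse. The authors deposited a table of estimated counts per gene, with 53392 rows. The submitters' processing notes name the build GRCm38.p6 and the tools Salmon 0.11.3 and edgeR 3.24.3, without saying what each did. The library kit's strand setting is not given in the sources used here, so overlapping and antisense genes cannot be told apart. Totals were 18064491 to 30036912 per library. Gene names and coordinates came from GENCODE gene models on GRCm38, with 99.93% of identifiers matched.

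Estimated counts were rounded to whole numbers, which changed 0.0083% of the counts. Genes were kept with edgeR's filterByExpr over the 4 groups (minimum count 10, minimum total 15), and 15928 remained. The main test was edgeR's quasi-likelihood test (4.0.16, R 4.3.3) with TMM scaling and terms for germ-free status and pregnancy, and every adjusted p is a Benjamini-Hochberg value over all genes tested, with a threshold of 0.05. Values per library are CPM on scaled library sizes. A ± after a log2 value is a standard error. The effects within each pregnancy state and the interaction came from a model of all 4 groups. Within the 4 groups, 50 pairs of replicates were compared in all, and no pair agreed within sampling noise (lowest mean chi-square per gene 31.97). Libraries are separate mice per the labels. The scripts were tested on simulated data.

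Named genes were those with the largest called changes that had no overlap within either pregnancy state and at least 5 CPM on the higher side, the 2 called members of each list with the smallest adjusted p, the 5 called genes with the highest level, a set of reporter genes, and the 5 genes with the smallest interaction p. The comparison and the gene lists were chosen with earlier results of these data known. Alternatives were other size factors, other filters, DESeq2 1.42.0, limma-voom (limma 3.58.1), a replicate block, mitochondrial genes removed or their share as a term, the age label as a term, a model without pregnancy, a 4-group average, and each library left out in turn.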

Additional observations from a re-analysis of the deposited data

Results flagged for a closer look

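Single libraries lay far from the rest of their group in 21 of 196 gene and group sets (10.7%), where chance gives about 5%, by the gap of the highest or lowest library relative to the group's range. Conventional pregnant replicate 2 accounted for many of them. It was high for Saa1 at 2050 CPM (others 16.4 to 26.1), Saa2 at 2160 CPM (8.67 to 16.3), Lcn2 at 884 CPM (4.14 to 13.0), Fgf21 at 25.9 CPM (0.383 to 1.0) and Plekha1 at 10.3 CPM (5.57 to 6.47). It was low for Cyp7a1 at 17.8 CPM (170 to 191), Cyp8b1 at 11.4 CPM (100 to 234), Ces2a at 120 CPM (198 to 214), Tat at 565 CPM (1060 to 1210) and Tsc22d3 at 17.9 CPM (34.4 to 44.2).

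Germ-free non-pregnant replicate 2 was low for Cyp2c67 at 59.6 CPM (others 117 to 168), Cyp8b1 at 0.604 CPM (8.84 to 27.7), Cyp1a2 at 330 CPM (697 to 952) and Mup15 at 0.0 CPM (4.99 to 24.8). Among germ-free pregnant mice, replicate 1 was high for Osgin1 at 112 CPM (73.3 to 81.9) and Saa2 at 40.9 CPM (11.1 to 16.2). Replicate 2 was high there for Ces2a at 126 CPM (77.8 to 89.0), and replicate 3 for Cyp7a1 at 248 CPM (127 to 137). Conventional pregnant replicate 1 was high for Cyp4a14 at 556 CPM (145 to 188), conventional non-pregnant replicate 6 for Slc40a1 at 136 CPM (97.5 to 109) and germ-free non-pregnant replicate 1 for Igha at 2.05 CPM (0.0526 to 0.107).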

How the results depend on the processing

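In the pooled comparison, 54 genes higher and 55 lower became 144 and 129 with DESeq2, with all 109 among them. They became 23 and 28 with the mitochondrial share as a term, 13 and 13 without the pregnancy term, and 0 and 0 with the age label as a term (576 at an unadjusted p under 0.05). Leaving out 1 library at a time gave 43 to 66 higher and 37 to 74 lower. Of the 109 genes, 71 kept their call in all 22 such fits and none changed sign, and 4 changed sign under some other setting (Gsdmd, Ppat, Retreg1 and Tedc2). The cause of these shifts was not tested. The 25 calls in non-pregnant mice became 117 with DESeq2 and 10 to 44 without 1 library. They were under 17 without conventional non-pregnant replicate 1 (13), 2 (14), 3 (10), 4 (15) or 6 (13) or germ-free non-pregnant replicate 3 (12) or 4 (11), and 44 without conventional pregnant replicate 2. The 21 in pregnant mice became 35 with no filter, 108 with DESeq2, 6 with the mitochondrial share, 5 with only these groups fitted and 5 to 28 without 1 library. They were under 14 without conventional pregnant replicate 4 (7) or 5 (6) or germ-free pregnant replicate 3 (12), 4 (5) or 5 (6). The interaction, with 0 calls, gave 2 with no filter, 2 with the stricter filter and 2 with limma-voom (Cyp2b13 and Scd1 each time), 7 with DESeq2, and 0 to 2 without 1 library. The 2 were Ildr2 and 2010003K11Rik, without conventional pregnant replicate 1, and Cyp2b13 was called without conventional pregnant replicate 2 or 3 or germ-free non-pregnant replicate 6.

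Replicate numbers share no stated link, and the deviations of same-numbered livers correlated from -0.213 to 0.307, with a liver correlating best with its own number only for non-pregnant 2. With the replicate block, 44 genes were higher and 66 lower, 90 of them shared, and the interaction gave 1 (Cyp2b13). Of the genes named by rule, Cyp8b1, Tat, Rdh5, Mt1 and Gm43305 were not called under the block. Under the block Cyp7a1 was at -0.03.

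Genes that were not called changed sign as follows. Cyp7a1 was at -0.11 with the mitochondrial share, -0.99 with age and -0.13 to 0.11 without 1 library. Cyp4a14 was at -0.06 with the mitochondrial share and -0.07 to 0.26 without 1 library. With age, Cyp2b10 was at 0.08, Cyp2a5 at -0.2, Saa1 at 2.32, Saa2 at 3.23, Lcn2 at 1.7, Scd1 at 0.1, Fgf21 at 1.02, Nnt at -0.32 and Plekha1 at 0.06. Lcn2 was at 0.37 with limma-voom. Without 1 library, Saa1 ran from -1.72 to 0.53, Saa2 from -2.34 to 0.27, Lcn2 from -1.5 to 0.72 and Fgf21 from -1.69 to 0.08, each turning without conventional pregnant replicate 2. Genes at few counts, such as Sult1e1 and Igha, are limited by depth.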

Other observations

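Further hepatocyte programs are given here. Over all genes tested, 0.684% were called. At an unadjusted p under 0.05 there were 9.78%, with 637 genes higher and 920 lower. None of 25 pericentral hepatocyte genes was called (8 higher and 2 lower at an unadjusted p under 0.05, median 0.18). Without conventional pregnant replicate 2, Oat and Slc1a2 of this list were called higher and the median was 0.11. Of 22 periportal genes, Pck1 was higher and Apoa4 and Ctsc, a lysosomal protease, lower (median 0.09). None of 30 genes of protein folding and the unfolded protein response was called (median 0.03). The same held for 20 drug transporters outside the bile acid list (median 0.05) and for 30 hepatokine and fasting genes (median 0.05), of which Igfbp1 was called without that library. Of 37 genes of the urea cycle and amino acid catabolism, Got1 and Tat were the 2 called, both higher, with 8 higher and 0 lower at an unadjusted p under 0.05 (median 0.13). Without that library the called genes were Tat and Oat.

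None of 37 genes that sense bacterial products or answer to NF-kB was called, with 0 higher and 5 lower at an unadjusted p under 0.05 and a median of -0.20. Without conventional pregnant replicate 2 the direction turned, with 3 higher, 2 lower and a median of 0.06, and 13 members were under 0 in place of 31. All 17 genes of MHC class I presentation had a log2 difference under 0 (median -0.19), and none was called. Without conventional pregnant replicate 2, 15 of these 17 were under 0 and the median was -0.09.

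Gm43305, a gene model among the 5 called genes with the highest level, rose by 1.27 ± 0.26 (adjusted p = 0.0159, edgeR), from 141, 380 and 557 CPM to 324, 686 and 1630 CPM (lowest, median and highest). Its call ended with the mitochondrial share as a term and with a replicate block.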
